A study of Mus musculus with 3 samples.

Results

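The interleukins and their receptors were represented by 113 probes for 80 genes among the 41174 probes and 29273 gene names of the array, and every probe whose array gene name begins with Il and a number was taken. The EpH4-PR line, mouse epithelial cells of mammary origin with a stable transfection of the progesterone receptor isoform PR-A, was cultured with 10% FBS to roughly 75% confluence, and its RNA was hybridised in Cy5 to 3 Agilent whole mouse genome arrays. A commercial mouse reference RNA, named in the labels as the Stratagene mouse standard, was hybridised to each array in Cy3, with no dye swap, so that a dye effect and a level cannot be told apart. EpH4-EV cells, which carry the empty vector, were not analysed here, and a ratio is therefore a level in EpH4-PR cells relative to the reference RNA and does not measure an effect of PR. Whether the 3 replicates were separate cultures is not stated, so p-values measure only the spread between these 3 samples, which may be technical. No clone or passage is given in the labels for the transfected line.

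Interleukins are secreted proteins through which cells, above all leukocytes, signal to each other. Most act on receptors built from a chain that recognises the ligand and a chain shared with other receptors, such as the common gamma chain (Il2rg), gp130 (Il6st), Il10rb, Il1rap or Il17ra. Receptors of the Il1 and Il17 families signal to NF-kappaB, and most of the others signal through Jak kinases and Stat factors. Epithelial cells are known to carry receptors of the Il17 and Il10 families, through which they respond to leukocytes at barrier surfaces.

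The EpH4-PR channel is Cy5 and the reference channel is Cy3 throughout. The scanner software marked 29603 to 30939 probes of each array as well above background in Cy5 and 32587 to 33261 in Cy3. Log2 ratios of the interleukin probes had a Pearson correlation of 0.937 to 0.959 between arrays, across probes that are not independent replicates. Each of the 2 probes of Pgr, the progesterone receptor gene, was well above background in Cy5 on only 1 of the 3 arrays, and where in the transcript they lie was not analysed here. Of 10 epithelial marker genes, all were detected and 9 were higher than the reference, while Krt19 was lower at -2.62 ± 0.18 (SD, n = 3, log2 ratio). All 7 mesenchymal marker genes were lower by at least 1 probe, although 3 of them lost the call when each array was centred on its median in place of loess (Fn1 at 0.13, Pdgfrb at -0.42 and Zeb1 at -0.87). Of 12 leukocyte marker genes, 10 had a probe well above background in Cy5 on all 3 arrays, Itgam and Kit had none on any array, and 5 were lower than in reference RNA with 0 higher. Among these 10, Ptprc passed by a dim probe, at 24.1, 17.6 and 18.4 in Cy5. Its probe with the most Cy3 signal was above background in Cy5 on no array, at a mean log2 ratio of -4.50. The summed leukocyte signal was 939 to 1135 in Cy5 and 2197 to 2404 in Cy3, as intensity before dye scaling. Since markers of leukocytes also passed, a probe well above background is not by itself a sign of a functional receptor or of a cell type, and the part of other cells in the interleukin signals was not tested. In RNA of a whole culture, fewer cells with a transcript and less of it per cell cannot be told apart.

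After loess the called genes fell mostly in the Il1, Il10 and Il17 families, which held 19, 11 and 11 of the 80 genes. In EpH4-PR cells the receptor genes were detected more often than the ligand genes. The reference channel was alike by probe, with 41 of 57 receptor probes and 23 of 44 ligand probes detected on all 3 arrays. Of the 113 probes, 66 (58.4%) were well above background in Cy5 on all 3 arrays, where 68.9% of all probes were. In the reference channel 70 probes (61.9%) were, against 69.3% of all probes. By another rule, a signal above the 95th percentile of the negative control spots, 67 interleukin probes (59.3%) passed on all 3 arrays, against 66.8% of all probes. On no array were 30 interleukin probes well above background in Cy5, and 11 were in neither channel. By gene, 52 of 80 had a probe detected on all 3 arrays and 13 had none on any array. These were 30 of 36 receptor genes, 19 of 36 ligand genes, 2 of 5 genes of soluble inhibitors or decoy receptors, 0 of 2 chemokine receptor genes that the array names Il8ra and Il8rb (now Cxcr1 and Cxcr2), and the single enzyme gene Il4i1, which encodes an amino acid oxidase. A gene counted by any of its probes, and 16 receptor genes against 7 ligand genes had more than 1 probe. Whether these shares differ beyond the number of genes was not tested.

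**Figure D1:**
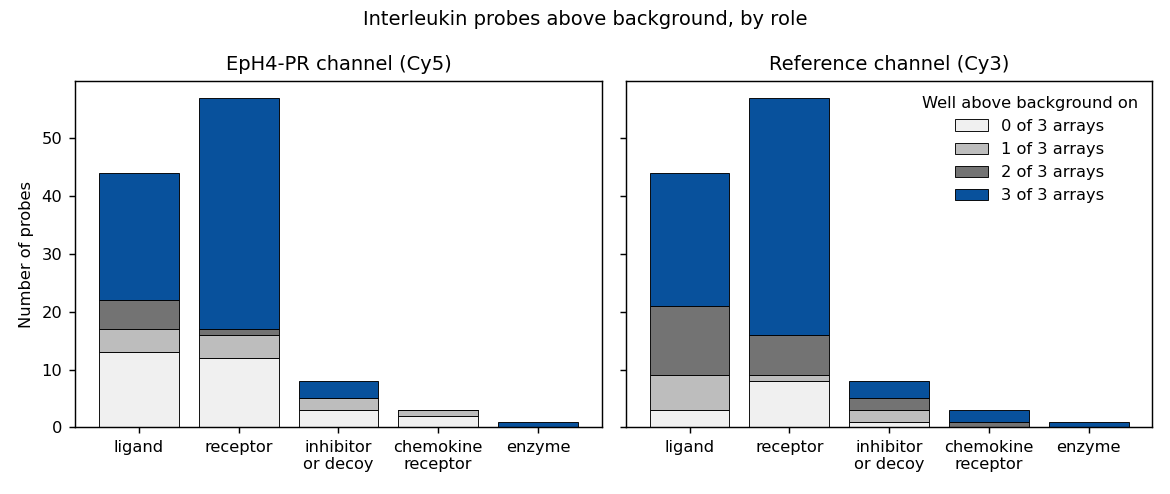
Number of interleukin probes (vertical axis) by role, with each bar split by the number of arrays on which the probe was well above background, in Cy5 (left) and the reference channel (right). In EpH4-PR RNA 40 of 57 receptor probes and 22 of 44 ligand probes were detected on all 3 arrays.

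A probe was called where its log2 ratio was at least 1 either way and its adjusted p was under 0.05 (limma with Benjamini-Hochberg adjustment over all probes). Of the 113 interleukin probes, 8 (7.08%) were higher than the reference, where 2.26% of all probes were, and 7 (6.19%) were lower, where 3.83% of all probes were. The median log2 ratio was -0.08 over the interleukin probes and -0.01 over all probes. The higher probes belonged to 6 genes, namely Il17re, Il17rc, Il17d, Il18r1, Ifnlr1 (listed on the array as Il28ra) and Il24. The lower probes belonged to 4 genes, namely Il1rl1, Il1r1, Il11ra1 and Il10rb. The other 98 probes lay between -0.83 and 0.84. Loess forces the centre of the ratios to 0 at every brightness, and the calls depended on it. With median centring in its place, 11 interleukin probes (9.73%) were higher, where 17.1% of all probes were, and 3 (2.65%), all of Il1rl1, were lower, where 1.72% of all probes were. All 8 higher probes were higher under both scalings.

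**Figure D2:**
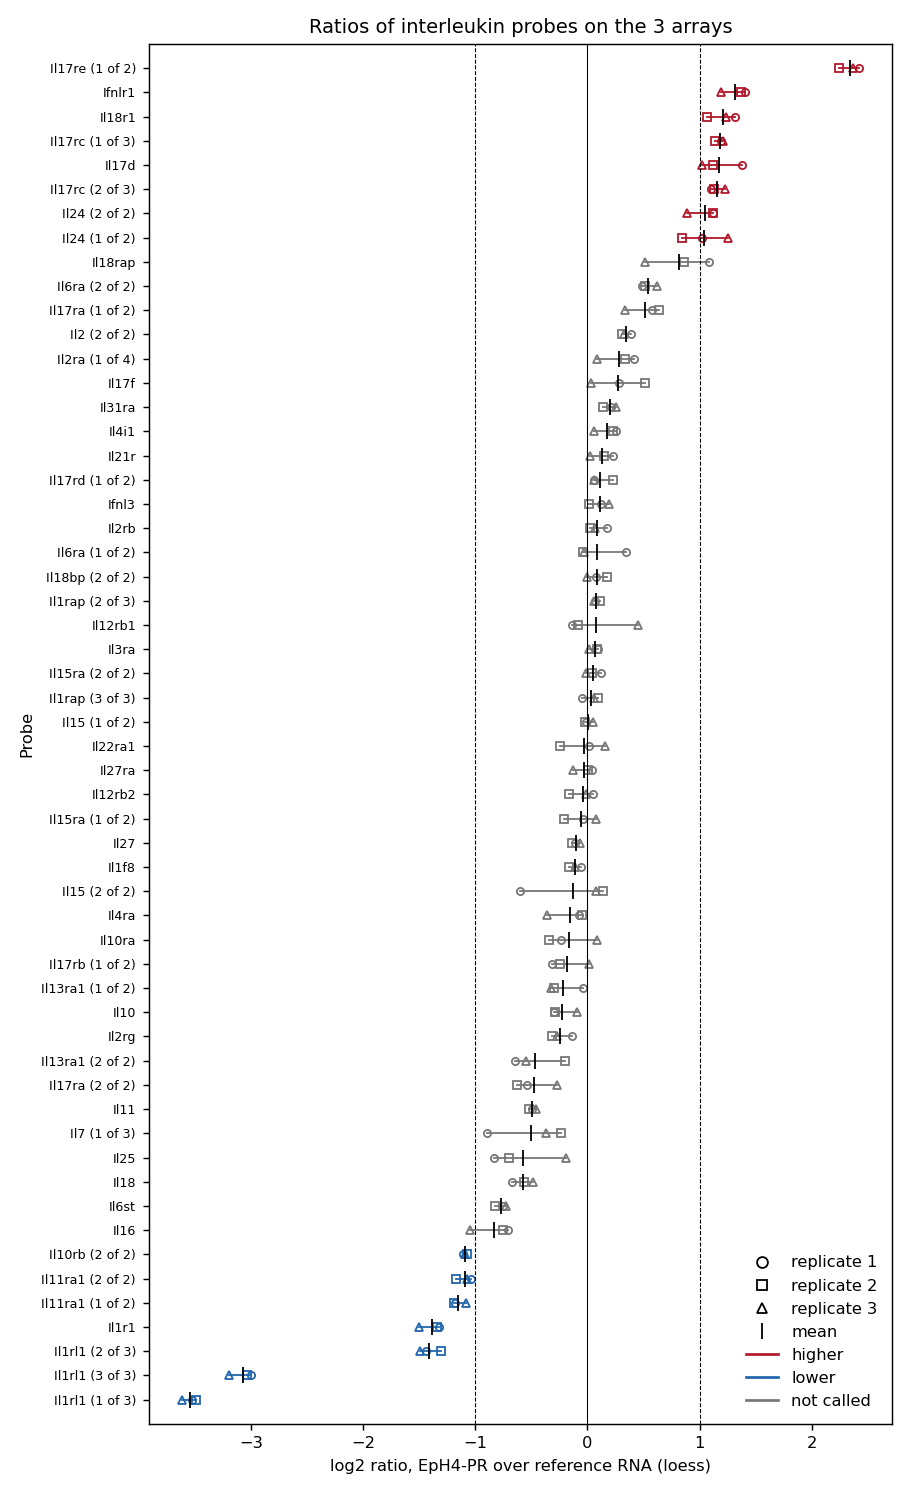
Log2 ratio, EpH4-PR over reference (horizontal axis), on each array for 56 interleukin probes, those called and those detected in each channel of every array, with the mean as a vertical tick and dashed lines at the threshold of 1 either way. The probe of Il17re stands highest and the 3 probes of Il1rl1 reach lowest; the Il10rb and Il11ra1 probes, drawn as lower, lie between -0.06 and 0.14 under median centring.

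After loess Il17re held the highest ratio of the interleukin probes, whereas with the scanner log ratio Il18r1 lay higher (4.51 against 3.42), and both called receptor genes of the Il17 family were higher than the reference. Il17re and Il17rc encode receptor chains that pair with the shared chain Il17ra, Il17re for Il17c and Il17rc for Il17a and Il17f. In the RefSeq gene table of GRCm38.p6 the genes Il17re and Il17rc are direct neighbours on chromosome 6, with 0 genes between them. Their sequences upstream of the start are shown because both neighbours were called higher. Each window is the 250 bases before the RefSeq start on the + strand of GRCm38.p6, at chr6:113458521-113458770 for Il17re and chr6:113471205-113471454 for Il17rc, and capitals mark matches to the letters of the NF-kappaB pattern searched on either strand, which is GGG, any 5 bases and CC.
Il17re: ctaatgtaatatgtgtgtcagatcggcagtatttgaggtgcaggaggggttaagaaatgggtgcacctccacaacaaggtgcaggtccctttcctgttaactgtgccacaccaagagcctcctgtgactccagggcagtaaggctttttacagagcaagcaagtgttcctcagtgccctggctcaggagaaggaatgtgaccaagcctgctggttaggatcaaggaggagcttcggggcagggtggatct
Il17rc: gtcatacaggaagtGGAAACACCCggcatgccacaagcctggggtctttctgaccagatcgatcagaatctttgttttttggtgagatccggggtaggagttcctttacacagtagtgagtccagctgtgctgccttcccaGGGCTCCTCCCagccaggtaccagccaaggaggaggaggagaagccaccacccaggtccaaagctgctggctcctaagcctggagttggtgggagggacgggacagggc
The Il17rc window held 3 matches at 2 places, of which 2 overlap each other by all but 1 base, and the Il17re window held 0. These letters occur in 45.4% of the first windows of 27025 genes, so a match is a common feature and only a description.

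The brighter probe of Il17re (A_51_P119771) had log2 ratios of 2.42, 2.24 and 2.37 on replicates 1, 2 and 3, with mean 2.34 ± 0.09 (SD, n = 3, adjusted p = 1.93e-05). Its background-subtracted intensity before dye scaling was 1022, 894 and 1000.5 in Cy5 and 34.8, 38.2 and 39.2 in Cy3. The channels did not overlap, and the mean ratio was 3.28 under median centring. A dimmer probe (A_52_P242012) gave 0.47, 0.81 and 0.46, with mean 0.58 ± 0.20 (SD, n = 3), which missed the threshold of size. For Il17rc, probe A_52_P143976 gave 1.19, 1.14 and 1.21, with mean 1.18 ± 0.04 (SD, n = 3, adjusted p = 4.57e-05), with intensities of 4379.6, 4134 and 4766 in Cy5. Probe A_52_P143982 gave 1.10, 1.13 and 1.23, with mean 1.15 ± 0.07 (SD, n = 3, adjusted p = 6.31e-05). Both Il17rc probes were thus higher on every array, and median centring placed them at 2.55 and 2.28. The third Il17rc probe (A_52_P48976) was not well above background in either channel on any array.

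The other Il17 receptor chains were not called. Il17ra, the chain shared by the receptors of the family, had 2 probes that disagreed in sign. One (A_51_P348280) gave 0.57, 0.64 and 0.33, with mean 0.51 ± 0.16 (SD, n = 3), and the other (A_52_P31577) gave -0.54, -0.63 and -0.27, with mean -0.48 ± 0.19. Under median centring they lay at 1.00, which was called higher, and 0.06. Il17rb, the chain for Il25, gave -0.31, -0.24 and 0.01 on its detected probe, and Il17rd, a chain known as a brake on growth factor signalling, gave 0.06, 0.23 and 0.05 on its own. Both lay near the reference level.

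Among the Il17 ligands, Il17d was called higher. Its log2 ratios were 1.38, 1.12 and 1.02, with mean 1.17 ± 0.19 (SD, n = 3, adjusted p = 0.000261), with intensities of 403, 355 and 370.1 in Cy5 against 45.2, 48.9 and 50.9 in Cy3. The groups did not overlap, and median centring gave 1.92. The T cell ligand Il17a (listed as Il17) was above background in EpH4-PR RNA on no array and Il17c on 1. The remaining ligands were detected at low intensity: Il17b at 18.1, 18.6 and 14.2, Il17f at 30.8, 34.7 and 21.7 and Il25 (listed as Il17e) at 36.3, 35.5 and 15.5, with mean log2 ratios of 0.06 ± 0.06, 0.28 ± 0.24 and -0.57 ± 0.34 (SD, n = 3). None of these 3 was called after loess, but Il25 was called lower with offset 0 (-1.07). In all, 4 of the 17 probes of the Il17 family were higher and 0 lower, and 12 were detected on all 3 arrays.

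**Figure D3:**
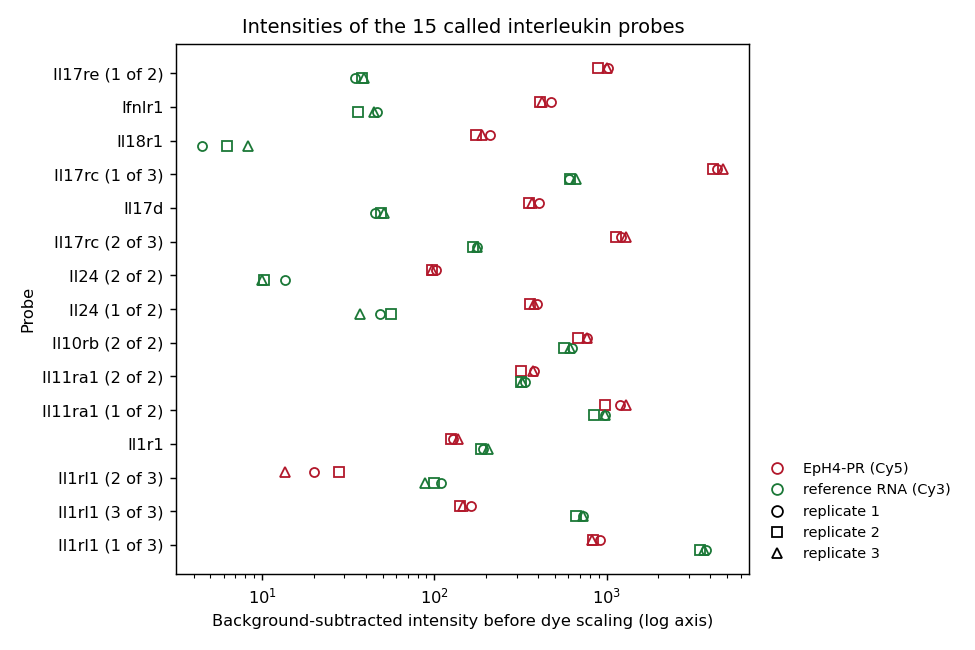
Background-subtracted intensity before dye scaling (log axis) of the 15 called interleukin probes in the EpH4-PR and reference channels of each array, ordered by log2 ratio. For the 8 higher probes the EpH4-PR points lie right of the reference points, and for the Il1rl1 and Il1r1 probes left of them; the Il10rb and Il11ra1 probes, called lower after loess, have slightly more signal in Cy5 than in Cy3 on all 3 arrays.

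In the Il1 family the receptors of a single gene run were called in opposite directions. In the RefSeq table the genes Il1r2, Il1r1, Il1rl2, Il1rl1, Il18r1 and Il18rap follow each other on chromosome 1 with 0 genes between neighbours. Il1r1 and Il1rl1 were lower than in reference RNA and Il18r1, the direct neighbour of Il1rl1, was higher. The windows of these last neighbours are shown for that contrast. RefSeq gives 2 starts for Il1rl1, at chr1:40429320-40429569 and chr1:40439379-40439628, and 3 for Il18r1, of which the first is shown, at chr1:40465302-40465551 (250 bases before the start, + strand, GRCm38.p6).
Il1rl1, first start: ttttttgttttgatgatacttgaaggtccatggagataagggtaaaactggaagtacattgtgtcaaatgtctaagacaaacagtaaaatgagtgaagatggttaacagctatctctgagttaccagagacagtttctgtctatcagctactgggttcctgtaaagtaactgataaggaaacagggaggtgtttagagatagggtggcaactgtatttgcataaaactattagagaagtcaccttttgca
Il1rl1, second start: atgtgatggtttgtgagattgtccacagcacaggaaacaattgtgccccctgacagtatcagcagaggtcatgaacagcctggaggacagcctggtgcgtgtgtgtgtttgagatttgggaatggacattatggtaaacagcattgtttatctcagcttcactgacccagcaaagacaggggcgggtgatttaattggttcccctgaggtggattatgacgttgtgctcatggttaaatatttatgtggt
Il18r1, first start: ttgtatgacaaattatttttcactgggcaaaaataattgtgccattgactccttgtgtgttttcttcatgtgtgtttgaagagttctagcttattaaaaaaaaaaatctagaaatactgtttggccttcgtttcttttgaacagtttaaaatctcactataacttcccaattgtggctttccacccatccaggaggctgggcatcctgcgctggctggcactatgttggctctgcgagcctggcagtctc
None of these windows held a match to the letters searched on either strand, which were those of the NF-kappaB pattern, of AP-1 (TGANTCA, in 6.85% of all windows), of Stat (TTC, any 3 bases and GAA, in 7.14%), of the core of the progesterone response element (TGTTCT, in 16.1%) and of the TATA box (TATAAA, in 13%), and this says only that the letters are absent there. Windows were found for 64 of the 80 genes, and the first start of each gene was counted. Of the 5 higher genes with a window, 3 (Ifnlr1, Il17d and Il17rc) held the NF-kappaB pattern, and of the 3 lower ones 0 did, where 29 of the 64 interleukin genes and 45.4% of all genes held it.

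Il1rl1, which encodes ST2, the receptor chain for Il33, had the lowest ratio of the 80 genes, and all 3 of its probes were called. Probe A_51_P339793 gave -3.53, -3.49 and -3.61, with mean -3.54 ± 0.06 (SD, n = 3, adjusted p = 1.19e-05), with intensities of 915, 836 and 829 in Cy5 and 3759.9, 3476 and 3703 in Cy3. Probe A_52_P484194 gave -3.00, -3.03 and -3.19, with mean -3.08 ± 0.10 (SD, n = 3), and probe A_52_P19955 gave -1.44, -1.31 and -1.49, with mean -1.41 ± 0.09 (SD, n = 3). The groups did not overlap for any of them, and the means stayed lower under median centring at -2.17, -2.05 and -1.22. Il1rl1 was nevertheless well above background in EpH4-PR RNA on every array. Its ligand Il33, which the array lists under a clone name and which therefore fell outside the name rule, was also lower, at -3.11, -2.95 and -3.27, with mean -3.11 ± 0.16 (SD, n = 3, adjusted p = 2e-05), and at -2.49 under median centring.

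Il1r1, the signalling receptor of Il1a and Il1b, gave -1.32, -1.34 and -1.50, with mean -1.39 ± 0.10 (SD, n = 3, adjusted p = 5.43e-05). All 3 arrays were lower, but median centring moved the mean to -0.62, short of the threshold. Il18r1, the ligand-binding chain for Il18, gave 1.31, 1.07 and 1.24, with mean 1.21 ± 0.13 (SD, n = 3, adjusted p = 0.00011). It was well above background on all 3 arrays in Cy5, at 211, 175 and 189.9, and on none in Cy3, so that its ratio rests on a reference signal not told from background and its size is uncertain. It was the single interleukin probe seen on all arrays in EpH4-PR RNA and on none in the reference. Il18rap, the signalling partner of Il18r1, gave 1.08, 0.86 and 0.51, with mean 0.82 ± 0.29 (SD, n = 3), and was above 0 on every array but missed the threshold of size. With offset 0 (1.88) and with the scanner log ratio (1.59) Il18rap was called higher. Il1rap, the chain shared by the receptors of Il1, Il33 and Il36, was detected by 2 of its 3 probes, at 0.07, 0.11 and 0.06 and -0.05, 0.09 and 0.05, near the reference level.

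Of the 10 probes for Il1 family ligands 2 were detected on all 3 arrays. Il1b was above background in Cy5 on no array, and Il1a on all 3 by neither of its 2 probes. Il18 was detected on every array, at 48.2, 35.8 and 32.8, with log2 ratios of -0.67, -0.57 and -0.48, with mean -0.58 ± 0.09 (SD, n = 3). Il1f8, a ligand of the Il36 receptor, was detected at 104, 105 and 104, with log2 ratios of -0.06, -0.17 and -0.11. Neither was called. Il1f5, Il1f6, Il1f9 and Il1f10 were above background in EpH4-PR RNA on some arrays but not on all 3. Il1f5 was counted here with the ligands and not with the inhibitors. Of the inhibitors, Il18bp, which binds Il18, was detected by both probes at mean log2 ratios of 0.46 ± 0.07 and 0.08 ± 0.09 (SD, n = 3). The decoy receptor Il1r2 was above background in EpH4-PR RNA on no array, and the receptor antagonist Il1rn on 1 array for each probe. Across the family, 1 of 30 probes was higher, 4 were lower and 13 were detected on all 3 arrays.

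The Il10 family held 2 further higher genes. Ifnlr1 encodes the ligand-binding chain of the interferon lambda receptor, and its log2 ratios were 1.40, 1.37 and 1.19, with mean 1.32 ± 0.12 (SD, n = 3, adjusted p = 7.48e-05). The EpH4-PR intensities of 474, 412 and 423 stood clear of 46.7, 35.9 and 44.7 in Cy3, and median centring gave 2.11. Il22ra1, its direct neighbour on chromosome 4 and the receptor chain for Il22, gave 0.01, -0.25 and 0.15 and was not called. Il24, a ligand of the Il20 receptors, was called by both probes. Probe A_52_P87757 gave 1.12, 1.12 and 0.89, with mean 1.05 ± 0.13 (SD, n = 3, adjusted p = 0.000188), and probe A_51_P401517 gave 1.02, 0.84 and 1.26, with mean 1.04 ± 0.21 (SD, n = 3, adjusted p = 0.000535). Both means sit just above the threshold of 1: without replicate 3 the second fell to 0.93 and was no longer called, while median centring raised it to 1.82. For the first probe the reference channel was above background on 1 array only.

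The genes Il24, Il20, Il19 and Il10 are direct neighbours on chromosome 1, and only Il24 of these was called. Il20 was above background in EpH4-PR RNA on no array and Il19 on 2. Il10 was detected at 30.0, 34.2 and 28.0, with log2 ratios of -0.30, -0.29 and -0.09. The Il22 probes were above background on no array, and Ifnl3 (listed as Il28) was detected with log2 ratios of 0.12, 0.01 and 0.19. Il10ra, the ligand-binding chain for Il10, gave -0.23, -0.34 and 0.09. Il10rb, the chain shared by the receptors of Il10, Il22 and interferon lambda, was called lower after loess on probe A_51_P406454, at -1.11, -1.08 and -1.09, with mean -1.09 ± 0.01 (SD, n = 3, adjusted p = 5e-05), but lay at 0.12 under median centring, so its direction relative to the reference depends on the scaling. Its second probe was above background in neither channel on any array. Il20ra, listed under a clone name, was above background on 2 arrays at a mean of -0.37 ± 0.01 (SD, n = 3).

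In the Il6 and Il12 family 9 of 10 receptor probes and 4 of 6 ligand probes were detected, 0 were higher and 2 were lower. Il11ra1, the receptor chain for Il11, was called lower after loess by both probes, at -1.18, -1.19 and -1.08 and -1.04, -1.17 and -1.07, with means -1.15 ± 0.06 and -1.09 ± 0.07 (SD, n = 3, adjusted p = 5.97e-05 and 7.01e-05). Under median centring the means were 0.14 and -0.06, so the direction of this gene also depends on the scaling. Mouse has a near-identical copy, Il11ra2, and these probes may not tell the copies apart. Il6st, the gp130 chain shared by the receptors of Il6, Il11 and Il27, gave -0.76, -0.83 and -0.73, with mean -0.77 ± 0.05 (SD, n = 3). It was below 0 on every array but at 0.22 under median centring. Il6ra, the chain for Il6, gave 0.49, 0.51 and 0.62 on one probe and 0.34, -0.04 and -0.04 on the other, and neither was called after loess.

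The remaining receptor chains of this family lay near the reference level. Il12rb1, shared by the Il12 and Il23 receptors, gave -0.14, -0.08 and 0.45, Il12rb2 gave 0.05, -0.17 and -0.01, Il27ra gave 0.04, 0.00 and -0.13 and Il31ra gave 0.21, 0.14 and 0.25. Il23r was above background on 1 array. Among the ligands, Il6 was above background on no EpH4-PR array and on all 3 reference arrays. Its measured log2 ratios were -0.86, -0.76 and -0.88, with mean -0.83 ± 0.06 (SD, n = 3), which missed the threshold of size, and its size is uncertain since the Cy5 signal was not told from background. Il23a, the Il23 subunit, was detected on all arrays at 76.2, 77.9 and 75.7 and its log2 ratios were 1.03, 0.95 and 0.54, with mean 0.84 ± 0.26 (SD, n = 3), with the reference above background on 1 array. Il11 was detected with log2 ratios of -0.50, -0.52 and -0.46 and Il27 with -0.12, -0.13 and -0.07, while Il12a varied most of these, at -0.55, 0.09 and 0.35. None of these ligands was called after loess. With offset 0 and with the scanner log ratio, Il6 was called lower (-2.20 and -3.02) and Il23a higher (2.19 and 2.50).

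In the common gamma chain family 0 of 27 probes were called, and 17 were detected. Il13, Il13ra1 and Il13ra2 were counted here, although the receptor of Il13 pairs Il13ra1 with Il4ra and not with Il2rg. Il2rg, the shared chain, gave -0.13, -0.32 and -0.27 and Il2rb gave 0.18, 0.03 and 0.07, both detected. Il2ra was detected by 1 of its 4 probes only, at 0.41, 0.34 and 0.09. Il15ra gave 0.12, 0.04 and -0.01 and -0.04, -0.21 and 0.08, Il4ra gave -0.07, -0.04 and -0.36, and Il21r gave 0.23, 0.15 and 0.02. The 2 probes of Il13ra1 gave -0.04, -0.30 and -0.32 and -0.65, -0.20 and -0.55. These chains lay within 1 log2 unit of the reference on every array. Il7r was above background on all 3 arrays by neither of its 2 probes and Il9r on no array. Of the ligands, Il15 was detected by both probes at mean log2 ratios of 0.00 ± 0.04 and -0.13 ± 0.41. Il2, Il4, Il7 (by 1 of its 3 probes only) and Il13 were detected at low intensity, at most 45.5 on any array. Il9 was above background on no array and Il21 on 1. The decoy receptor Il13ra2 was detected at 23.3, 25.9 and 27.1, with log2 ratios of 0.39, 0.25 and 0.04.

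Of the 4 genes of the Il3 and Il5 family 1 was detected. Il3 and Il5 were above background in EpH4-PR RNA on no array, nor was Il5ra. Il3ra was detected at 1219.8, 1086 and 968, with log2 ratios of 0.09, 0.09 and 0.01, and was called higher only under median centring, at 1.26. Il16, a ligand of Cd4, gave -0.71, -0.75 and -1.05, with mean -0.83 ± 0.18 (SD, n = 3), below 0 on every array but short of the threshold. With offset 0 (-1.45) and with the scanner log ratio (-1.59) Il16 was called lower. Il4i1 gave 0.25, 0.23 and 0.06. Il34, a ligand of the Csf1 receptor listed under a clone name, was not called after loess, at 0.88 ± 0.09 (SD, n = 3), but was called higher under median centring at 1.83, and with the scanner log ratio (1.20) and offset 0.

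**Figure D4:**
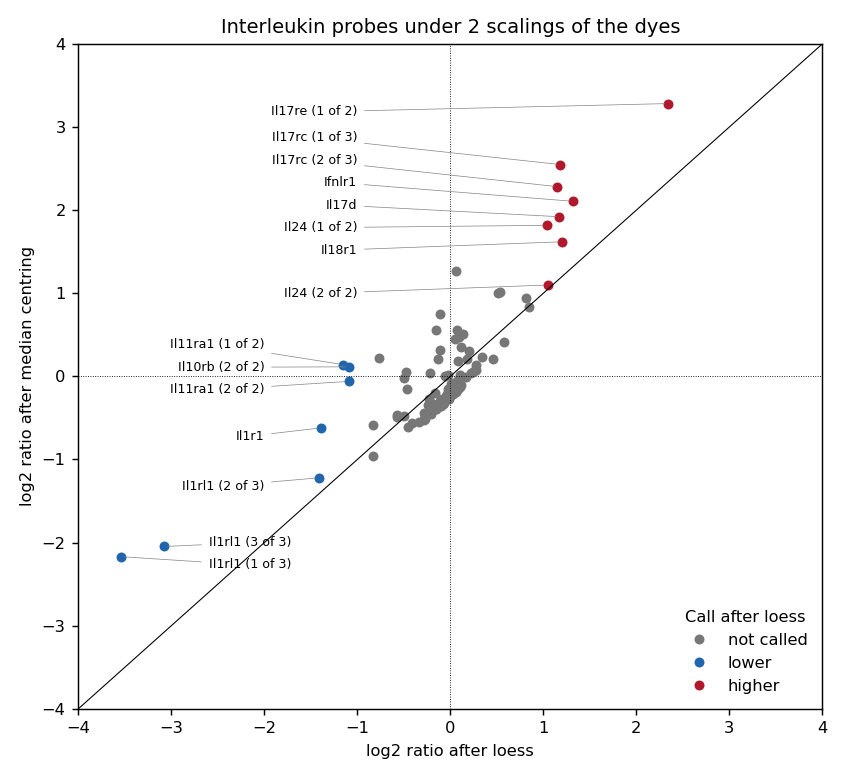
Log2 ratio of each interleukin probe after loess (horizontal axis) against the ratio after median centring (vertical axis), with a diagonal line where both are equal and called probes coloured by their call after loess. The 8 higher probes stay at 1.04 or above on both axes, while the Il10rb and Il11ra1 probes move from below -1 to between -0.06 and 0.14.

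For 21 of the 29 receptor complexes listed, every subunit had a probe well above background in Cy5 on all 3 arrays, where 68.9% of all probes were. The reference channel was alike. There the Il18 receptor was not complete (Il18r1 on 0 arrays), the Il36 receptor was (Il1rl2 on 3), and the other complexes stood as in Cy5. Completeness is therefore not particular to EpH4-PR RNA. These included the receptors of Il1, Il33, Il18, Il6, Il11, Il22, interferon lambda, Il17 and Il25. Il12 dropped out under the negative control rule through Il12rb2, leaving 20. In the incomplete receptors the chain not detected on all 3 arrays was Il1rl2 (Il36), Il7r (Il7 and Tslp), Il9r (Il9), Il5ra (Il5) or Il23r (Il23). Il20rb had no matched probe, so the type 2 Il20 receptor, of which Il22ra1 was detected, was not assessed. The type 1 Il20 receptor was not complete, since Il20ra was above background on 2 arrays only. Partners did not always move alike. In the Il33 receptor Il1rl1 was lower and Il1rap was not called, and in the interferon lambda receptor Ifnlr1 was higher and Il10rb was lower after loess but not under median centring. Since the leukocyte markers passed the same detection rule in 10 of 12 genes, the complete complexes are a description of transcripts above background.

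**Figure D5:**
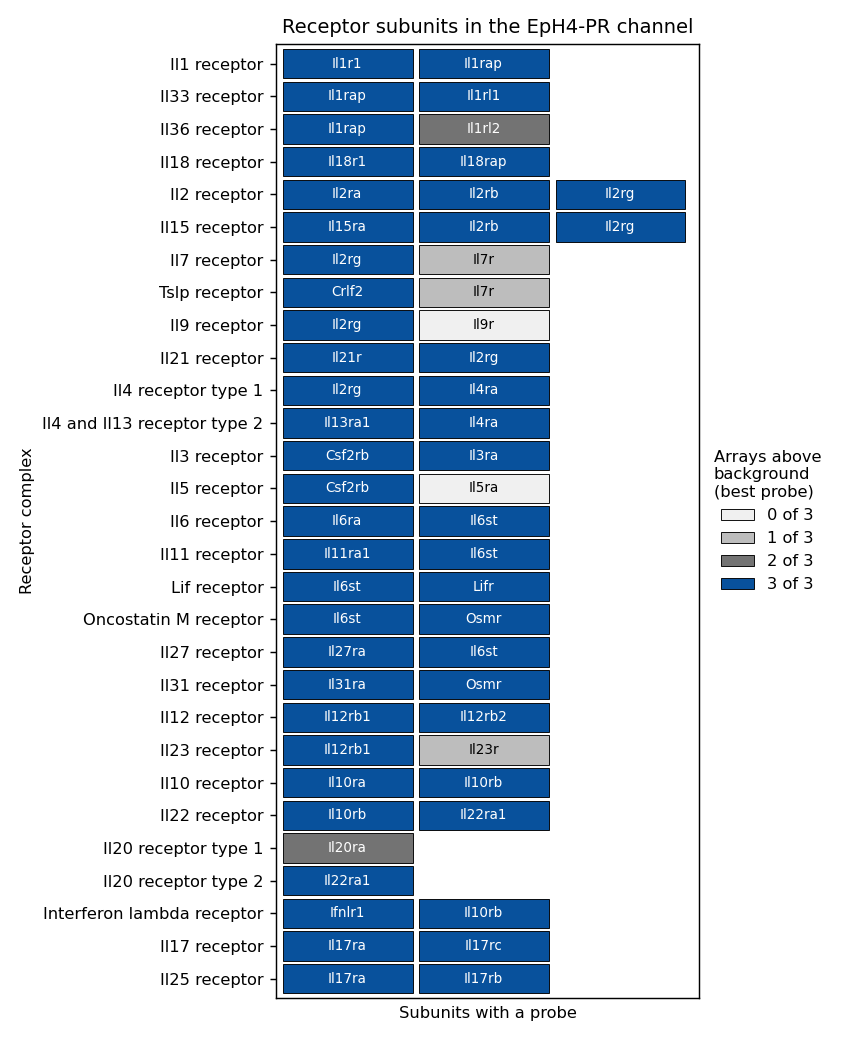
Subunits of 29 receptor complexes (one row each), coloured by the number of arrays on which the best probe of the subunit was well above background in Cy5. In 21 complexes every subunit reached all 3 arrays, and Il20rb, with no matched probe, is not drawn.

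Downstream of these receptors or partnered with them, 71 genes of signalling lists with 115 probes were read in the same way, leaving out the interleukin genes. Partner ligands and receptors, which are not downstream genes, made up 17 of the 71 genes and 24 of the 115 probes. They held 5 of the 8 genes called lower and 0 of those called higher. Of the 71 genes, 66 were detected on all 3 arrays, 2 were higher and 8 were lower. Their probes had a median log2 ratio of -0.0043, against -0.01 over all probes. By probe, 101 of the 115 were detected in Cy5 and 100 in the reference channel, where 68.9% and 69.3% of all probes were. Calls were made for 2 probes higher and 8 lower of the 115, where 2.26% and 3.83% of all probes were called. Median centring turned the balance to 22 genes higher and 5 lower, with a median of 0.30 over their probes. Under that scaling 17.1% of all probes were higher and 1.72% lower, with a median of -0.01. After loess 0 of the 11 Jak and Stat genes were called. In the lists of NF-kappaB and of Socs and other inhibitors, Nfkbie, an inhibitor of NF-kappaB, was higher at 1.42, 1.39 and 1.37, with mean 1.39 ± 0.02 (SD, n = 3), and Ptpn11, a phosphatase, was higher by 1 of its probes at 1.97 ± 0.12. Of its other probes 2, at 0.64 ± 0.03 and 0.66 ± 0.04, missed the threshold.

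Socs3, an inhibitor of gp130 signalling, was lower after loess at -1.90, -1.83 and -1.89, with mean -1.87 ± 0.04 (SD, n = 3), and lay at -0.59 under median centring. The phosphatase Ptpn6 was lower on one probe at -1.65 ± 0.15 (-0.98 under median centring, not called), and its second probe lay at 0.05 ± 0.07. Pycard, the inflammasome adaptor, was lower on one probe at -2.01 ± 0.13 (-1.49 under median centring), and its second probe, at -0.75 ± 0.05, was not called. Of the partners of interleukins outside the name rule, Osmr, the chain shared by the receptors of oncostatin M and Il31, was lower at -2.54, -2.61 and -2.72, with mean -2.62 ± 0.09 (SD, n = 3), on one probe, while its second probe missed the threshold at -0.45 ± 0.15. Csf2rb2, a beta chain used by Il3, lay at -1.80 ± 0.10 and Ebi3, a subunit of Il27, at -1.29 ± 0.13, of which Ebi3 was not called under median centring, at -0.76. Tslp, an epithelial cytokine, was above background on no EpH4-PR array and on all 3 reference arrays, and was called lower at -1.28 ± 0.29, a size that is uncertain for the same reason as that of Il6. Pycard, Ptpn6 and Csf2rb2 are known to be abundant in leukocytes, of whose 12 markers Ptprc, Adgre1, Cd68, Fcer1g and Tyrobp were also lower than in reference RNA (Tyrobp at -0.94, not called, under median centring) and the other 7 were not called, and the part of the reference's leukocyte content in these ratios was not tested.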

How the data were processed

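Total RNA of EpH4-PR cells (Cy5) and a commercial mouse reference RNA (Cy3) were hybridised to 3 Agilent arrays, with 1 array a slide. The authors deposited the scanner output (Feature Extraction 8.1.1.1, 43790 spots an array), in which each spot has an intensity and a local background intensity in both channels, and the scanner software's own log10 ratio (Cy5 over Cy3). A further deposited table, with fold changes and p-values between sides that its header leaves unnamed, holds the authors' own comparison and was not used.

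Mean spot intensities were corrected with normexp (offset 50) against the median local background and normalized within arrays by loess in limma 3.58.1 (R 4.3.3). Control spots were given no weight, outlier spots (150, 18 and 3 on replicates 1, 2 and 3) were left out, and replicate spots were averaged per probe. Log2 ratios were fitted with lmFit and eBayes against 0, with Benjamini-Hochberg adjustment over 41174 probes, and calls needed both an adjusted p below 0.05 and an absolute log2 ratio of 1 or more. The script was tested on simulated data. A probe was detected where the scanner software marked it well above background on all 3 arrays, and a gene where any of its probes was. Where a probe was above background on no array of a channel, the size of its ratio is uncertain. The number of arrays limits the precision. Medians of Cy5 were 93.8 to 113 and of Cy3 108 to 142, against local backgrounds of 39 to 43.

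Current symbols came from RefSeq accessions (GRCm38.p6 gene table), which matched 97 of the 113 interleukin probes and changed 7 names, and the other probes kept the array's name. The files name no genome build, so no coordinates of probes are given. Upstream windows and gene order are RefSeq's, and figures were drawn with matplotlib 3.10.9 (Python 3.11.15). Values on each array were planned for called interleukin probes, subunits of complete receptors and detected ligands, and called genes were to be named from the lists of Jak and Stat, Socs and other inhibitors, Il1 and Toll adaptors, NF-kappaB and partner genes. A called gene of these lists is counted but not reported here by name. Epithelial, leukocyte and mesenchymal marker lists served for the check of the cells. The members, lists and roles were chosen with earlier results of these data known. The alternatives were offset 0, the scanner log ratio, median centring, Aquantile, the median spot intensity, a filter on dim probes, outlier spots kept, an intensity trend, the methods' t-test, other detection rules and each array left out.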

Additional observations from a re-analysis of the deposited data

How the results depend on the processing

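After loess 8 interleukin probes were higher and 7 lower than reference RNA. The scanner log ratio gave 13 higher and 14 lower, and median centring gave 11 higher and 3 lower. Offset 0 gave 15 lower, and further probes of Il17re, Il18bp, Il18rap and Il23a were called higher. For the signalling genes, 2 higher became 9 with offset 0, 11 with the scanner log ratio and 22 with median centring, and 8 lower became 14 with offset 0, 14 with the scanner log ratio and 5 with median centring. Over all probes the share of higher among the calls was 37.1% after loess, 90.9% under median centring, 48.2% with the scanner log ratio and 44.5% with offset 0. These counts were 932 higher and 1578 lower after loess, 7031 and 708 with each array centred, 3616 and 3887 with the scanner log ratio, and 3125 and 3905 with offset 0. Of the called probes 2 changed sign under median centring, Il10rb to 0.115 and Il11ra1 to 0.142, and the cause was not tested. The methods' t-test called 929 probes higher and 1577 lower at a P of at most 0.05 with the same threshold of size, and 897 and 1547 after Benjamini-Hochberg adjustment. Aquantile leaves ratios as they are by construction. Detection counts and counts of complete receptors stayed within 1.5 times under the other rules, and so did all counts above with an array left out. Arrays had a slide each, so slide could not be fitted as a block. No paired analysis was possible because the labels give a single group. Many interleukin probes are dim, and offset 50 shrinks the ratios of dim probes, so that Il6, at -0.83 after loess, read -2.20 with offset 0.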
